A study of Mus musculus with 6 samples.

Results

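The genes described here encode 9 proteins of the basement membrane, read in cultured pancreatic fibroblasts: the laminin alpha chains Lama4 and Lama5, the beta chains Lamb1, Lamb2 and Lamb3, the gamma chain Lamc1, the nidogens Nid1 and Nid2, and perlecan (Hspg2). They were taken by symbol from the table of gene counts, 9 of the 14831 genes it lists, and the list itself was made with earlier results of these data known. All 9 passed edgeR's filter on low counts and are among the 14289 genes tested. In the KO-labelled libraries, the transcript of Lamb3 was 15.4-fold higher and that of Nid2 2.33-fold higher than in the WT-labelled ones, while Nid1, Lamc1 and Lama4 were 1.37-fold, 1.35-fold and 1.62-fold lower.

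A laminin is a cross-shaped trimer of 1 alpha, 1 beta and 1 gamma chain that is assembled inside the cell and secreted. Outside the cell, laminins polymerize into a sheet that cells grip through integrins and dystroglycan, nidogens tie this sheet to the type IV collagen network, and perlecan, a large proteoglycan with heparan sulfate chains, binds to both. In the pancreas, basement membranes of this kind lie under ducts, acini and blood vessels, and fibroblasts contribute part of their components.

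RNAseq was done on 6 libraries of immortalized pancreatic fibroblasts (strain given as "Mixed"), 3 with the genotype label WT and 3 labelled Gli2-/-;Gli3-/-, from confluent cultures, each grown in its own well. The lines came from the adult pancreas of mice with floxed Gli alleles. After immortalization, control cells received an adenovirus for eGFP and a lentivirus for dsRed, and knockout cells received adenoviruses for eGFP and for Cre under the CMV promoter; infected cells were sorted by flow cytometry. Both groups therefore share the floxed alleles, immortalization, the eGFP virus and the sort, whereas Cre and dsRed differ between them, so that these and the genotype cannot be told apart here. Whether each RNAseq group is 1 clone is not stated. P-values below measure the spread between wells, not between independently made lines, and in bulk samples fewer cells of a type and less RNA per cell cannot be told apart.

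Totals ranged from 31728420 to 41035931 counts per library, where 3 counts correspond to between 0.072 and 0.0957 CPM (counts scaled to a library of 1e+06). The targeted genes were higher in the group labelled KO: Gli2 had 809, 944 and 868 counts in the WT-labelled libraries and 1932, 2316 and 1926 in the KO-labelled ones, and Gli3 had 392, 416 and 398 against 1434, 1637 and 1404. Counts per gene do not show which exons the reads came from, and a transcript that lacks a deleted exon is still counted. The Hedgehog target Hhip had 39, 42 and 44 counts against 0, 0 and 0, and Gli1 and Ptch1 fell by 2.40 and 1.52 on the log2 scale (edgeR, adjusted p = 2.3e-05 and 2.16e-11). The study's methods state that its lines were checked for recombination by qPCR and western blot, which the counts cannot repeat. Because the counts of the targeted genes were not lower in the group labelled KO, groups are called WT-labelled and KO-labelled libraries.

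Of 8 tested fibroblast markers, 7 fell in the KO-labelled libraries and 0 rose at an adjusted p under 0.05 (all genes: 28.8% and 29.9%). The list summed to 44830 to 47250 CPM in the WT-labelled libraries and 36780 to 38530 in the KO-labelled ones. Thy1 did not pass the filter on low counts, and Pdpn was not analysed here. The counts of Thy1 were 4, 1 and 0 in the WT-labelled libraries and 19, 15 and 9 in the KO-labelled ones, a rise. Of 8 listed mesothelial markers, all 6 that could be read rose by at least 1.5-fold (all genes: 11.6%). Their sum went from between 24.4 and 27.7 CPM to between 349.9 and 354.1. Krt19 and Muc16 were not analysed here. The epithelial markers Krt7, Cdh1 and Krt8 summed to between 4.29 and 5.23 CPM and then to between 23.9 and 24.4, with Krt8 at 1, 0 and 2 counts and then 7, 9 and 12; the other 5 of that list were not analysed here. Of the endothelial list only Vwf could be read, at 0.866 to 1.60 and 0.763 to 0.939 CPM. Macrophage markers summed to between 55.6 and 60.8 CPM in the WT-labelled libraries and 52.4 and 54.1 in the KO-labelled ones. Mural markers summed to between 1820 and 1981 CPM and then 1887 and 1973, most of it Acta2 (means 1893 and 1903). Mcam of that list rose from a mean of 3.56 to 20.4 CPM. Schwann cell markers summed to between 55.6 and 55.9 CPM and then 41.9 and 42.7, most of it Mbp (means 51.0 and 37.9). Erbb3 of that list rose from 5, 4 and 4 counts to 11, 13 and 12. Of 8 listed in each, 4, 3 and 5 could be read, and the others were not analysed here. Of those read, 0, 1 and 1 rose and 2, 0 and 1 fell at an adjusted p under 0.05.

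At an adjusted p under 0.05, 7 of the 9 members differed between the groups, where 58.7% of all genes tested did. Lamb2, Lamb3 and Nid2 were higher in the KO-labelled libraries, 3 of 9 against a background of 29.9%, and Lama4, Lamc1, Nid1 and Hspg2 were lower, 4 of 9 against 28.8%. A change of at least 1.5-fold was reached by 3 members, with a background of 17.7%: Lamb3 and Nid2 were higher (background 11.6%) and Lama4 lower (background 6.1%). The CPM values of the groups did not overlap for 6 members, those called except Hspg2, where 64.2% of all genes did not overlap. The median log2 fold change was -0.06 over the members and 0.002 over all genes, and the median absolute change 0.43 and 0.22. With 9 members, these shares are not read as differing from the background, and the members moved in different directions.

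**Figure D1:**
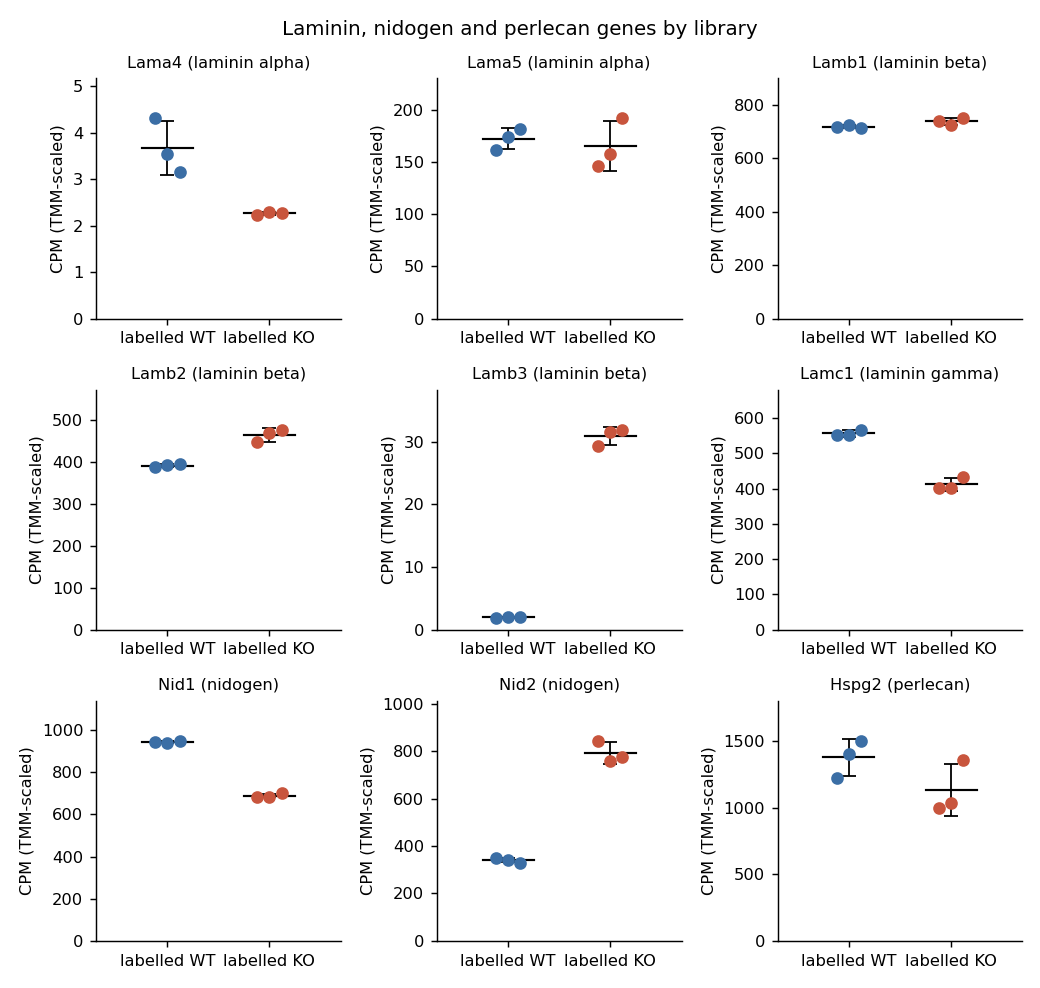
CPM scaled with TMM factors (vertical axes, each from 0) for the 9 members in the 3 WT-labelled libraries (blue) and the 3 labelled KO (red); points are libraries, horizontal lines group means and bars 1 SD. Lamb3 and Nid2 stand higher in all 3 KO-labelled libraries, Lamc1, Nid1 and Lama4 stand lower, and the groups overlap for Lama5, Lamb1 and Hspg2.

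**Figure D2:**
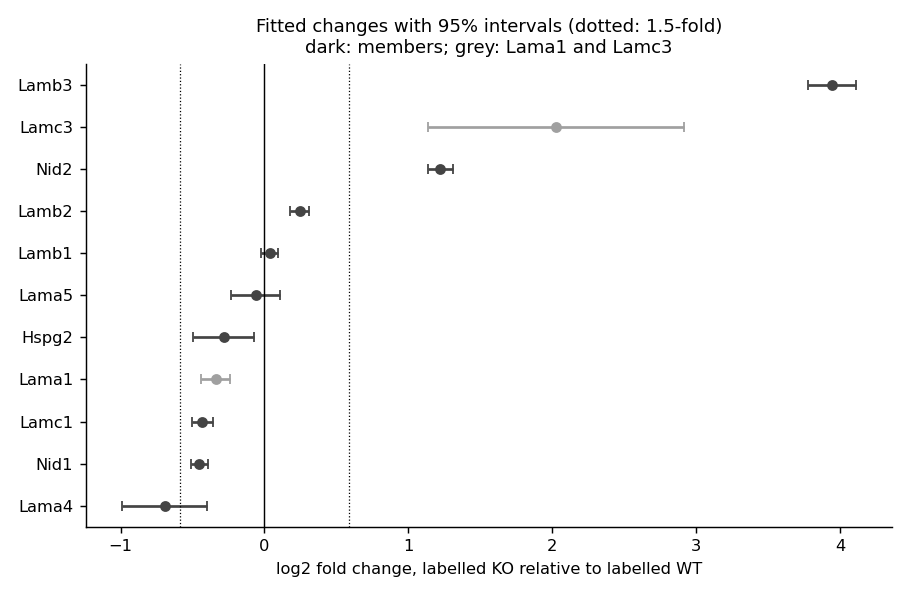
Fitted log2 fold change of KO-labelled over WT-labelled libraries (horizontal axis) with 95% intervals, for the members (dark) and for Lama1 and Lamc3 (grey); dotted lines mark 1.5-fold. Lamb3 lies at 3.94, Nid2 at 1.22 and all other members between -0.69 and 0.25.

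Among the alpha chains, which carry the main sites for cell receptors, Lama5 was by far the higher transcript and did not pass the test. Lama5 (on chromosome 2 from 180176373 to 180225859 by GENCODE M21 for build GRCm38, as for all genes here) encodes the long alpha chain found in most mature basement membranes. It had 161, 173 and 181 CPM in the WT-labelled libraries and 146, 157 and 192 in the KO-labelled ones. Library 3 of the KO-labelled group was the highest of all 6 and library 1 of that group the lowest, so the groups overlap. The log2 fold change was -0.06 (95% interval -0.23 to 0.11, adjusted p = 0.518 by edgeR). Without KO-labelled library 3 it was -0.18 with an adjusted p = 0.00436, and without KO-labelled library 1 it was 0.013 (0.889), so its direction rested on single libraries.

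Lama4 (on chromosome 10 from 38965515 to 39110188), an alpha chain of vessel, muscle and fat basement membranes with a short amino-terminal part, was a low transcript. Its counts were 135, 119 and 101 in the WT-labelled libraries and 79, 96 and 75 in the KO-labelled ones, or 4.31, 3.55 and 3.16 CPM against 2.23, 2.30 and 2.27. All 3 KO-labelled libraries lay below all 3 labelled WT, whose values spread more widely. Lama4 fell by 0.69 on the log2 scale (SE 0.14, adjusted p = 7.38e-04 by edgeR). Without WT-labelled library 1 it fell by 0.57, short of 1.5-fold, with an adjusted p = 0.00358.

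Lama1, an alpha chain of early embryonic basement membranes that is no member here, was read beside them and fell by 0.34 (35.2 ± 1.24 CPM in the WT-labelled libraries and 27.8 ± 1.21 in the KO-labelled ones, SD, n = 3 each; edgeR, adjusted p = 4.37e-05). Per kilobase of exon, Lama5 made up 79.3% ± 1.67 (SD, n = 3) of the summed level of the 3 alpha genes in the WT-labelled libraries and 82.4% ± 1.43 in the KO-labelled ones, Lama1 19.1% and 16.5%, and Lama4 1.61% and 1.08%. None of these shares overlapped between the groups, and each gave an exact two-sided permutation p = 0.1, the smallest that 3 against 3 can give. Lama2 and Lama3 were not analysed here, so the shares are of these 3 genes.

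The beta chains differed most among themselves: Lamb3 rose, Lamb2 rose by less than 1.5-fold and Lamb1 did not pass the test. Lamb1 and Lamb2 encode the beta chains that most laminins of stroma, vessels and muscle use, and Lamb3 encodes a shorter chain found in epithelial basement membranes. Their upstream sequences are shown because the 3 genes lie so far apart in response. Each is the longest unbroken stretch of the RefSeq promoter that no exon of GENCODE M21 covers. The promoter is the 250 bases before an annotated start (build GRCm38.p6, plus strand). Stretches are read 5′ to 3′, with matches to the GC box in capitals. Of the 250 bases before Lamb2, exons cover 48 and the stretch holds 124. Other uncovered bases, nearer the start of Lamb2, are therefore not shown. For Lamb3 it lies at chr1:193301744-193301992, for Lamb2 at chr9:108479612-108479735 and for Lamb1 at chr12:31265043-31265233. The Lamb3 stretch lies within the gene's GENCODE M21 span, which begins at 193207699. Counts per gene do not show which start was used, and the part of these sequences in the changes was not tested.
Lamb3: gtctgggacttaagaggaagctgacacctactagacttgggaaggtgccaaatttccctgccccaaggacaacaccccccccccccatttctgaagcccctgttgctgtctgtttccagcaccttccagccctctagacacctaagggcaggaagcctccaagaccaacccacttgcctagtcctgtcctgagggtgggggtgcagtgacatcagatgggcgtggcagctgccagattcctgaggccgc
Lamb2: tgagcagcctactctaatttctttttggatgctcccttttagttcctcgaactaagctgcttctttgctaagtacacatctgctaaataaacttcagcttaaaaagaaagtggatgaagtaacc
Lamb1: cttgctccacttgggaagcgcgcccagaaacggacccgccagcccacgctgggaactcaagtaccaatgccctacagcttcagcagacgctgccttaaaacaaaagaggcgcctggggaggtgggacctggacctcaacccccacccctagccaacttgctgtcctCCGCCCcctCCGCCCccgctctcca

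Over the full 250 bases, searched on both strands, the GC box (GGGCGG, which no other searched motif overlapped) occurred 2 times before Lamb1 and 0 times before Lamb2 and at either of the 2 RefSeq starts of Lamb3. It occurred 5 times before Hspg2, 4 times before Lama5 and 1 time before Nid1, and 32.7% of 32851 promoters held it. The GLI site GACCACCCA (0.225% of promoters), the AP-1 site TGANTCA (6.75%) and the TATA box TATAAA (12.4%) had no match in the 7 promoters of the 6 members found. CpG pairs numbered 2 and 3 before Lamb3, 3 before Lamb2 and 14 before Lamb1, against a median of 6 over all promoters, and 16, 19 and 20 before Nid1, Lama5 and Hspg2. The promoters of Lamb3 and Lamb2 thus hold fewer CpG pairs than the median and those of the other 4 more. RefSeq promoters of Lama4, Lamc1 and Nid2 were not analysed here.

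The transcript of Lamb3 (on chromosome 1 from 193207699 to 193343878) was counted 61, 68 and 65 times in the WT-labelled libraries and 1035, 1314 and 1053 in the KO-labelled ones. In CPM these were 1.95, 2.03 and 2.04 against 29.2, 31.5 and 31.9, 2 narrow groups far apart. The log2 fold change was 3.94 (SE 0.08, 95% interval 3.78 to 4.11, adjusted p = 5.75e-13 by edgeR), and 1.36% of all genes tested changed as much or more in either direction. The mesothelial and epithelial sums given above rose between the same groups; their part in the Lamb3 result was not tested.

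Lamb2 (on chromosome 9 from 108479736 to 108490530) had 388, 391.5 and 395 CPM in the WT-labelled libraries and 446, 468 and 477 in the KO-labelled ones, with no overlap. It rose by 0.25 on the log2 scale (SE 0.03, adjusted p = 2.08e-05 by edgeR), or 1.19-fold, and all 15 alternatives gave a change between 0.23 and 0.30. Lamb1 (on chromosome 12 from 31265234 to 31329644) stood at 719.6, 726 and 713 CPM against 742, 725.5 and 749.8. Library 2 of the KO-labelled group lay just below WT-labelled library 2, so the groups overlap. The log2 change was 0.04 (95% interval -0.02 to 0.10, adjusted p = 0.249 by edgeR), and upper-quartile scaling gave 0.095 with an adjusted p = 0.0101.

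Per kilobase of exon, Lamb1 made up 52.9% ± 0.383 of the beta chain level in the WT-labelled libraries and 47.9% ± 0.937 in the KO-labelled ones, Lamb2 46.9% ± 0.380 and 49.1% ± 0.842, and Lamb3 0.221% ± 0.00477 and 3.004% ± 0.0951 (SD, n = 3 each). Shares of the 3 genes did not overlap between the groups (exact permutation p = 0.1 each, the smallest possible). Which of Lamb1 and Lamb2 was ahead in the KO-labelled libraries depended on the gene length used, since the union of Lamb1's exons is 9917 bases and its longest transcript 5784: by the latter, Lamb1 made up 64.0% and 59.0%.

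**Figure D3:**
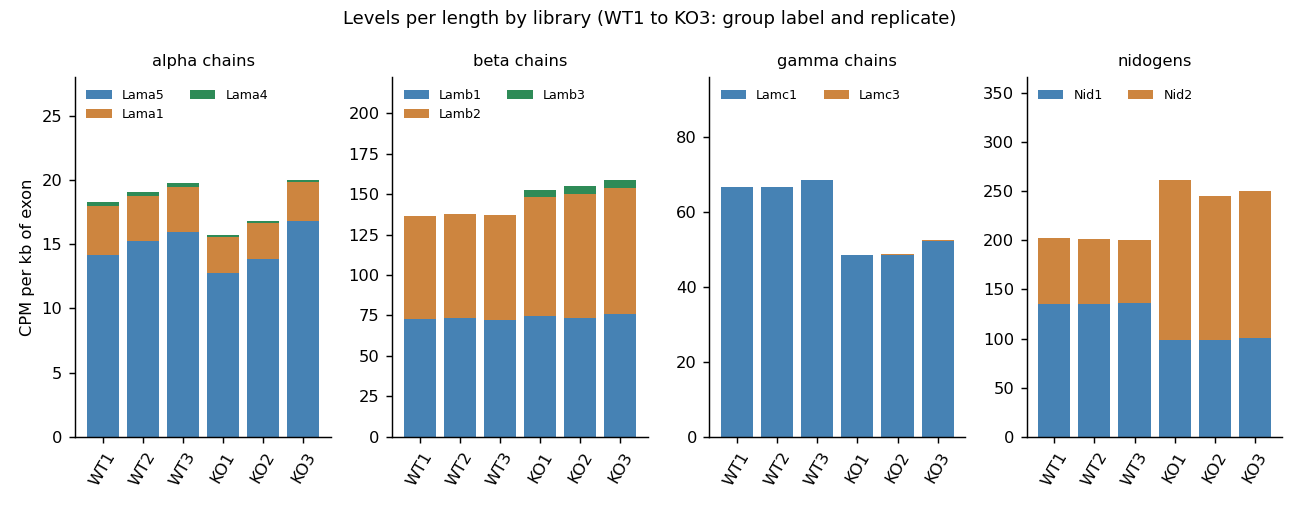
Stacked levels per length (CPM per kilobase of exon, vertical axes from 0) of laminin alpha, beta and gamma genes and the nidogens in each library, WT1 to WT3 labelled WT and KO1 to KO3 labelled KO. Lamc1 is lower in the KO-labelled libraries, Lamb3 is visible only in those, and Nid2 passes Nid1 there.

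Lamc1 (on chromosome 1 from 153218922 to 153332786) encodes the gamma chain shared by most laminins and was lower in every KO-labelled library. Its CPM were 551, 550.3 and 567 in the WT-labelled libraries and 401, 402 and 433 in the KO-labelled ones, with a wide gap between the groups. It fell by 0.43 on the log2 scale (SE 0.03, adjusted p = 2.81e-07 by edgeR), and by 0.38 to 0.47 over the 15 alternatives. Of 8 tested fibroblast markers, 7 fell between the same groups, and their part in the lower levels of Lamc1, Nid1 and Lama4 was not tested. Lamc3, a gamma chain known mainly from nerve and brain, had 4, 3 and 2 counts against 13, 19 and 11 (adjusted p = 9.31e-04 by edgeR), near the floor of 3 counts in the WT-labelled libraries.

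The summed level of the beta genes stood at 2.03 ± 0.0365 times the gamma level in the WT-labelled libraries and at 3.10 ± 0.0766 times in the KO-labelled ones (SD, n = 3 each). The alpha level was 0.281 ± 0.00760 and 0.348 ± 0.0292 times the gamma level. Neither ratio overlapped between the groups (exact permutation p = 0.1 each, the smallest possible). These are ratios of transcript levels within a library, which library scaling does not touch, and they say nothing of protein.

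The nidogens, glycoproteins that link laminin gamma chains to type IV collagen, moved in opposite directions. Nid1 (on chromosome 13 from 13437551 to 13512269) had 940.4, 937 and 949 CPM in the WT-labelled libraries and 683, 684 and 699 in the KO-labelled ones. The spread within each group was small beside the gap, with SDs of 5.88 and 8.86 CPM. Nid1 fell by 0.45 on the log2 scale (SE 0.03, adjusted p = 1.67e-08 by edgeR). Of its exon bases, 2.06% lie opposite exons of Gm48682.

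Nid2 (on chromosome 14 from 19751265 to 19811787) had 348, 342 and 330.3 CPM in the WT-labelled libraries and 844, 759.5 and 775 in the KO-labelled ones. Every KO-labelled library was above every WT-labelled library, and KO-labelled library 1 was the highest. The log2 fold change was 1.22 (SE 0.04, 95% interval 1.13 to 1.31, adjusted p = 6.29e-11 by edgeR), and 8.04% of all genes tested changed as much or more. Of its exon bases, 8.45% lie opposite exons of Rtraf, which itself fell by 0.58 (114 and 76.2 CPM), and whether counting used strand is not given in the sources used here. Mesothelial markers rose between the same groups as Nid2, and their part in its change was not tested.

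Per kilobase, Nid2 was 32.6% ± 0.686 of the nidogen level in the WT-labelled libraries and 60.7% ± 1.47 in the KO-labelled ones (SD, n = 3 each; exact permutation p = 0.1, the smallest possible). In each WT-labelled library the share lay between 31.9% and 33.2%, and in each labelled KO between 59.8% and 62.4%, so the leading nidogen changed from Nid1 to Nid2. The nidogens together stood at 2.997 ± 0.0626 times Lamc1 in the WT-labelled libraries and at 5.08 ± 0.304 times in the KO-labelled ones.

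Hspg2 (on chromosome 4 from 137468769 to 137570630), which encodes perlecan, had 1224, 1403 and 1501 CPM in the WT-labelled libraries and 999, 1036 and 1355 in the KO-labelled ones. Library 3 of the KO-labelled group lies inside the range of the WT-labelled ones, and the other 2 lie below it. Hspg2 fell by 0.28 on the log2 scale (SE 0.10, 95% interval -0.50 to -0.07, adjusted p = 0.024 by edgeR), the weakest of the 7 calls. DESeq2 and limma on the deposited log2 values each gave an adjusted p = 0.143, and upper-quartile scaling 0.0563. The call was also lost without WT-labelled library 2 or 3 (0.0785 and 0.0767) or KO-labelled library 1 or 2 (0.0947 and 0.0897). Relative to Lamc1, Hspg2 stood at 1.43 ± 0.129 and 1.58 ± 0.201 per kilobase, with overlap (exact permutation p = 0.5).

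Hspg2 and Lama5 have the longest transcripts of the members, at 14187 and 11388 bases; 0.552% and 1.37% of genes are as long. Their values followed a difference between libraries within each group. Over 301 genes with a transcript above 10000 bases, the median log2 deviation from the group mean was -0.0812, -0.0122 and 0.0936 in the WT-labelled libraries and -0.0925, -0.0483 and 0.143 in the KO-labelled ones. Hspg2 deviated by -0.164, 0.0331 and 0.131 and by -0.164, -0.112 and 0.275, the same order in each group, and Lama5 by -0.0905, 0.0128 and 0.0777 and by -0.168, -0.0574 and 0.225. With offsets for length and GC content in each library, an alternative chosen after seeing the data, Hspg2 fell by 0.24 with an adjusted p = 0.00185 by edgeR. The coefficient of variation of Hspg2 was 10.2% and 17.3% and that of Lama5 5.86% and 14.4%, against medians of 4.73% and 4.46% over all genes.

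**Figure D4:**
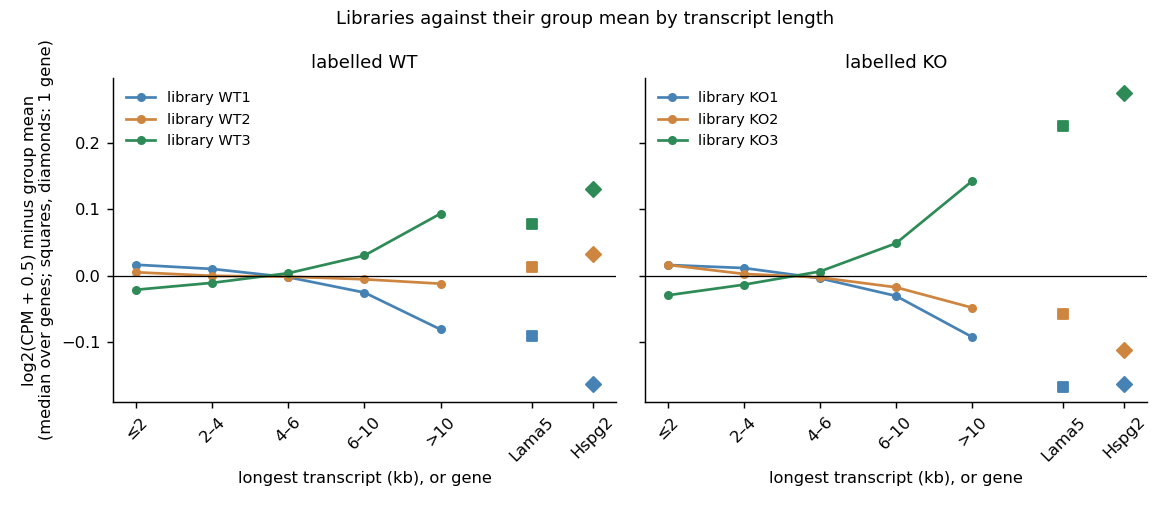
Median deviation of each library from its group mean, log2(CPM + 0.5), for genes binned by longest transcript (lines), with the deviations of Lama5 (squares) and Hspg2 (diamonds); WT-labelled libraries at left, labelled KO at right. Library 3 of each group is highest for genes above 10 kb (0.0936 and 0.143) and for both members.

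Ordered by level per kilobase of exon, Nid1 led the members in the WT-labelled libraries at 135.7 CPM per kb, followed by Hspg2 at 96.2 and Lamb1 at 72.6. Lamc1, Nid2 and Lamb2 came next at 67.2, 65.7 and 64.3, neighbours whose libraries overlap. Lama5 followed at 15.1, and Lama4 and Lamb3 were last at 0.304 and 0.303, also overlapping. In the KO-labelled libraries, Nid2 led at 153 and Nid1 came next at 99.2. Hspg2, Lamb2 and Lamb1 overlapped at 79.0, 76.3 and 74.5, and Lamc1 (49.8), Lama5 (14.5), Lamb3 (4.67) and Lama4 (0.188) followed without overlap. Nid2 thus went from the fifth to the first place and Lamb3 from last to above Lama4. With the longest transcript as length, Lamb1 was second in both groups, at 124 and 128. The summed level of the 9 members was 505.9 to 527 CPM per kb in the WT-labelled libraries and 535 to 573 in the KO-labelled ones, whereas without length the sums overlapped, at 4337 to 4642 and 4266 to 4714 CPM.

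Other parts of the basement membrane and its receptors were read from lists made with earlier results of these data known. Of 19 other basement membrane proteins tested, 13 rose and 4 fell (all genes: 29.9% and 28.8%), 11 and 3 of them by at least 1.5-fold (11.6% and 6.1%), with a median log2 fold change of 0.86 where that of all genes was 0.002. Frem1, of the Fraser complex that anchors epithelia, rose from 25, 18 and 20 counts to 378, 441 and 425 (log2 4.12). Smoc2, a matrix protein related to SPARC, rose by 3.20 and Tgfbi, an adhesive matrix protein, by 2.38. Agrn, the heparan sulfate proteoglycan agrin that binds laminin, fell by 0.79, the laminin-related Ntn1 (netrin) by 1.01 and the hemicentin Hmcn2 by 1.15 (edgeR, adjusted p at most 9.23e-07 for these 6). Mesothelial and epithelial markers rose between the same groups, and their part in the changes of these proteins and of the receptors described next was not tested.

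Of 20 laminin receptors and their complex partners, 11 rose and 4 fell, with 5 and 0 past 1.5-fold and a median of 0.23, beside the same shares of all genes. Bcam, a receptor for the Lama5 chain, had 7, 1 and 4 counts against 123, 133 and 129, a log2 change of 4.78 that ranged from 4.30 to 5.45 when WT-labelled library 2 or 1 was left out. Mcam, an adhesion receptor of vessel cells, rose by 2.52 and Itga6, the alpha subunit of laminin-binding integrins, by 1.77, from 2.53 ± 0.103 to 8.65 ± 0.327 CPM. Dag1, which encodes dystroglycan, fell by 0.19, from 660 ± 26.5 to 579 ± 17.7 CPM, as did the proteoglycan Sdc1, and the sarcoglycan Sgce fell by 0.25 (edgeR, adjusted p at most 5.31e-04 for these 6).

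Of the enzymes that build the laminin-binding sugar of dystroglycan, 18 were tested, and 4 rose and 1 fell (all genes: 29.9% and 28.8%). Past 1.5-fold were 1 and 0 (all genes: 11.6% and 6.1%), and the median log2 fold change was -0.01. Gmppb, of sugar nucleotide synthesis, rose by 0.47, and the dolichol kinase Dolk fell by 0.16 (edgeR, adjusted p = 0.00925).

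For the heparan sulfate that perlecan carries, 5 of 19 tested enzymes rose and 9 fell (all genes: 29.9% and 28.8%). Past 1.5-fold were 2 and 3 (all genes: 11.6% and 6.1%), and the median log2 fold change was -0.04. The 5 past 1.5-fold became 8 without any 1 of the WT-labelled libraries and 9 with no filter on low counts. Ndst1, an N-deacetylase and N-sulfotransferase, fell from 361 ± 8.90 to 207 ± 5.45 CPM (log2 -0.81), Hs6st1, a 6-O-sulfotransferase, by 0.69, and Sulf1, which removes such sulfates outside the cell, by 0.87. Hs3st1 rose by 1.07, Ndst3 by 0.96 and Glce, the epimerase, by 0.40 (edgeR, adjusted p at most 3.93e-05 for these 6). Xylt1, Extl1, Hs3st3b1 and Hpse are named because they did not pass the filter and so were not tested. They had at most 5 counts in any WT-labelled library and at most 16 in any labelled KO. Each was higher in every KO-labelled library than in any labelled WT. Xylt1 had 1, 1 and 1 counts against 10, 14 and 12, and Extl1 3, 5 and 4 against 13, 16 and 8. Hs3st3b1 had 0, 2 and 0 against 15, 10 and 12, and Hpse 0, 0 and 0 against 12, 10 and 6.

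Among 15 proteases that cut basement membrane proteins, 4 rose and 5 fell (all genes: 29.9% and 28.8%). Past 1.5-fold were 3 and 2 (all genes: 11.6% and 6.1%), and the median log2 fold change was -0.02. Tll1, a tolloid protease of the Bmp1 family, rose by 3.07, from 54, 45 and 25 counts to 421, 397 and 365, while Bmp1, which trims laminin chains, fell by 0.17. Htra1 and Adamts1 each rose by 0.62, and Mmp3 and the membrane-bound Mmp14 fell by 0.98 and 0.40 (edgeR, adjusted p at most 2.08e-04 for these 6).

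**Figure D5:**
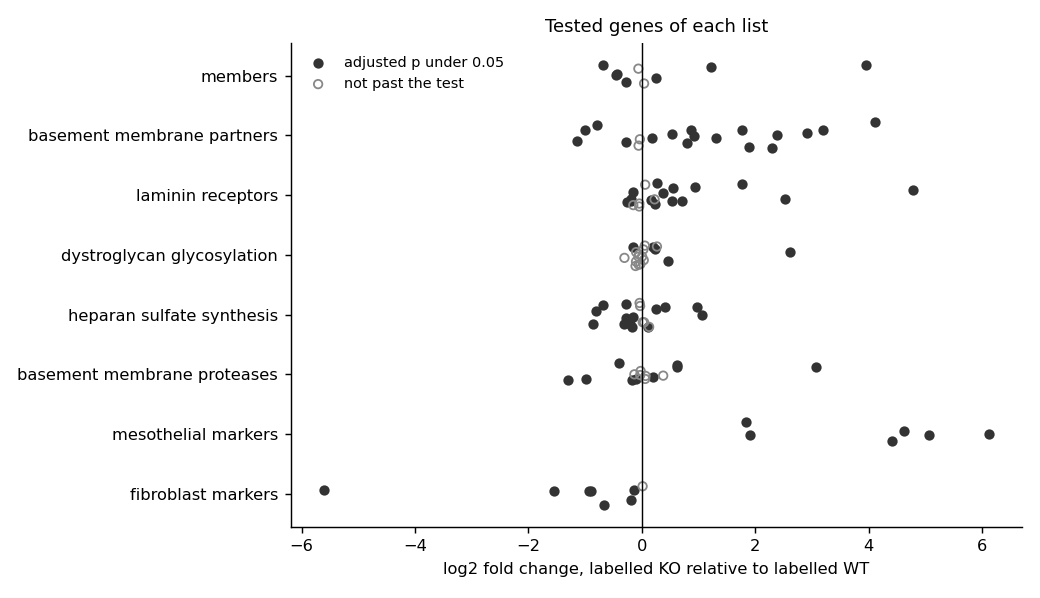
Fitted log2 fold change of KO-labelled over WT-labelled libraries (horizontal axis) for each tested gene of the members, 5 related lists and 2 marker lists; filled points passed an adjusted p under 0.05 and open points did not. The members fall on both sides of 0, 13 of 17 called basement membrane partners lie above it, and the 6 mesothelial markers all lie above it.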

How the data were processed

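Polyadenylated RNA of 6 libraries was measured. The authors deposited raw counts of reads per gene, without normalization, and log2 CPM values from limma's voom. Per the labels, the submitters' processing notes name STAR 2.7.2b, featureCounts, limma and the build GRCm38.p6; whether counting used strand is not given in the sources used here. The tables list 14831 genes, of which 14822 identifiers matched GENCODE M21 without version, the source of positions and lengths. Members and gene lists were chosen with earlier results of these data known.

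For the comparison of the groups, edgeR 4.0.16 (R 4.3.3) was fitted to the counts (TMM scaling, filterByExpr, quasi-likelihood F test, Benjamini-Hochberg adjustment over 14289 genes), labelled KO relative to labelled WT, with groups from the genotype label and libraries numbered within a group only to name them. CPM are scaled by TMM factors. Levels between genes were compared as CPM per kilobase of the union of annotated exons, and shares and ratios within a library by exact two-sided permutation over libraries. The code was tested on simulated data. Libraries of a group differed beyond sampling noise (chi-square per degree of freedom 2.53 to 7.85), so all 6 were kept as replicates, and intervals are at 95%. Depth is given as total counts; floors of 3 counts cover counting error only.

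All members, other laminin chains and Gli2, Gli3, Gli1, Ptch1 and Hhip are named. From each other list that holds no markers, up to 3 genes in each direction are named: the largest changes past the test, without overlap and with 50 or more counts in each library of the group that was higher. A few genes that this rule would name are not reported here. The alternatives comprised scaling by RLE, by the upper quartile or by totals alone, no filter or at least 10 counts in every library, a 2-fold limit, DESeq2 1.42.0, limma 3.58.1 by voom and on the deposited values, other gene lengths, leaving out each library in turn, and, chosen after seeing the data, offsets for GC content and transcript length.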

Additional observations from a re-analysis of the deposited data

How the results depend on the processing

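The changes of Lama4, Lamb2, Lamb3, Lamc1, Nid1 and Nid2 kept their direction and their call in all 15 alternatives. Hspg2 lost its call under upper-quartile scaling (-0.23), DESeq2 (-0.29) and limma on the deposited values (-0.29), and its log2 change ran from -0.43 to -0.21 with 1 library left out. Lama5 ran from -0.18 to 0.013 in the same way, called without KO-labelled library 3 and turned without KO-labelled library 1. Lamb1 was called under upper-quartile scaling (0.095), library totals alone (0.073) and the offsets for GC content and length (0.080). Members called numbered 6 to 8, and those at 1.5-fold 2 to 3, with 1 library left out.

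A 2-fold limit left 1456 genes where 1.5-fold gave 2531, 3 laminin receptors (5), 1 heparan sulfate enzyme (5) and 2 proteases (5). Requiring 10 counts in every library left 0 other laminin chains (1) and 0 dystroglycan enzymes (1). Heparan sulfate enzymes at 1.5-fold numbered 9 with no filter, 8 with DESeq2, 9 with limma on the deposited values and 6 to 8 with 1 library left out, where the count was highest without any 1 of the WT-labelled libraries. Without length the rise in the Lamb3 share was 2.32 percentage points (2.78), the beta to gamma difference 0.984, and 1.32 with the longest transcript (1.07), and the summed level of the members turned to -78.0 CPM, against 34.0 CPM per kb and 55.0 under upper-quartile scaling. The cause of these shifts was not tested. The median over all genes moved by at most 0.059 between scalings. No paired analysis was possible because the labels give no replicate numbers. At this depth Lamc3 and Bcam, with at most 7 counts in any WT-labelled library, have loosely set changes.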
